A study of Mus musculus with 6 samples.

Results

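Potassium channel genes were examined in the medial prefrontal cortex of male 129S1/SvImJ mice, an inbred strain, on 2 diets. The members were all probe sets whose annotation gave a single gene symbol starting with Kcn, apart from Kcnj8, Kcnj13 and Kcnip3, which were not used. This gave 163 of the 45037 probe sets on the array outside its controls, for 81 genes. The diets were ZnR (mice 3, 7 and 11) and control (mice 1, 5 and 9). All 6 mice were 8 to 10 weeks old and had been through fear extinction training, in which a learned fear cue is given without its outcome, and tissue of both hemispheres was taken 2 h later. No untrained mice were among these samples, and the labels call the ZnR mice Zn dieted without saying what either diet contained. RNA of each mouse was read on its own Affymetrix Mouse430_2 array, where a probe set is a group of short probes read together as one log2 expression value.

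Potassium channels let potassium leave a neuron and so set its resting voltage, end each action potential and limit how fast it fires. The voltage-gated (Kv) channels open on depolarization, the inward rectifiers carry current near rest, some of them when G protein-coupled receptors are active, the channels with a pair of pore domains per subunit carry the background leak, and others open on internal calcium or sodium. Most are built from 4 pore subunits, so accessory and silent subunits change what a channel does without making one alone. In prefrontal cortex these channels shape how pyramidal neurons and fast-spiking interneurons fire.

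The arrays had medians over all probe sets of 4.46 to 4.52 log2 units. Array controls that read 18S ribosomal RNA averaged 8.44 in ZnR mouse 3 and 9.09 in control mouse 1, against 10.9 to 12.4 on the other 4 arrays, so those mice stood apart. The array of control mouse 1 is also named by another pattern in the labels than the other 5, and whether it was handled apart was not tested. Markers of cortical excitatory neurons were measured for 6 genes, and their mean per mouse was 8.04 to 8.24 in ZnR mice and 9.04 to 9.16 in control mice, with 5 of the 6 lower by the test used here. Striatal medium spiny neuron markers, 8 of 10 measured, averaged 11.3 to 11.5 in ZnR mice and 10.6 to 11.1 in control mice, with 2 higher by the test. Choroid plexus and ependymal markers, 7 of 7 measured, averaged 5.45 to 5.65 in ZnR mice and 4.06 to 4.96 in control mice, with 2 higher. The means of 3 further lists, each measured in full, were higher in ZnR mice without overlap. Astrocyte markers averaged 10.8 to 10.9 in ZnR mice and 10.5 to 10.7 in control mice, with Gfap past the test. Oligodendrocyte precursor markers averaged 7.90 to 8.12 in ZnR mice and 7.62 to 7.69 in control mice, and endothelial and mural markers 7.21 to 7.41 in ZnR mice and 6.97 to 7.15 in control mice, with none past the test. These marker lists moved with the diet in the same arrays as the channel genes, and their part in the results was not tested. In bulk tissue, fewer cells of a type and less RNA per cell cannot be told apart. The striatal list averaged above the cortical excitatory list in every mouse of both diets, though signal also differs between probe sets. How much of each sample was cortex, and whether this share differed between the diets, was not tested.

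The potassium channel genes that passed the test used here belonged to 4 families, and each was lower in ZnR mice. These were Kcnv1, a silent Kv subunit, Kcnj9, a G protein-gated inward rectifier, Kcnh1, a channel of the ether-à-go-go group, and Kcnc2, a Kv3 channel of fast-spiking neurons. They were 1.52-fold to 1.98-fold lower on the 8 probe sets that passed. A probe set was tested if its log2 value exceeded 4 on at least 3 arrays, which kept 104 member probe sets of 55 genes, and 59 probe sets of 163 were too low. Of the 104, 8 were lower in ZnR mice at an adjusted p under 0.05 (limma, Benjamini-Hochberg over all 25381 probe sets tested), or 7.69%, beside 1.01% of all probe sets tested. One of the 8, of Kcnj9, passed the level filter through control mice alone, and 7 were called among probe sets above 4 on all 6 arrays. None was higher by the same test, beside 0.461% of all probe sets. At an unadjusted p under 0.05, 42 were lower and 7 higher, or 40.4% and 6.73%, beside 7.9% and 9.06% over all probe sets.

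Most of the other channel probe sets leaned the same way without passing the test. The mean was lower in ZnR mice for 80 of the 104 and higher for 24, with a median log2 difference (ZnR minus control) of -0.21, beside 0.02 over all probe sets tested. All 3 ZnR values lay below all 3 control values for 45 probe sets, or 43.3%, beside 10.6% of all probe sets, and above them for 7, or 6.73%, beside 13.1%. For that Kcnj9 probe set and for 1 of Kcnip1, which passed the filter through ZnR mice alone, the direction was fixed by the filter. Represented by the probe set with the highest mean, 3 of 55 genes were lower, or 5.45%, and 0 higher, beside 1.27% and 0.655% of 11749 genes, since Kcnh1 passed on its other probe set. At an unadjusted p under 0.05, 25 genes were lower and 4 higher, or 45.5% and 7.27%, beside 7.31% and 11.4% of all genes. Leaving out any mouse moved the count of 8, to 0 without ZnR mouse 3, 2 without ZnR mouse 7, 0 without ZnR mouse 11, 4 without control mouse 1, 0 without control mouse 5 and 1 without control mouse 9 (limma; 28 to 39 lower and 7 to 10 higher at an unadjusted p under 0.05). The calls over all probe sets moved too, being 373 with every mouse and 1 to 109 with a mouse left out. Fitting ZnR mouse 3 and control mouse 1 as a block of their own gave 12, and leaving both out gave 0 (39 lower and 5 higher unadjusted), with 550 and 1 calls over all probe sets. Unadjusted counts over all probe sets were not made for the fits with mice left out, so those of the members have no share beside them.

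**Figure D1:**
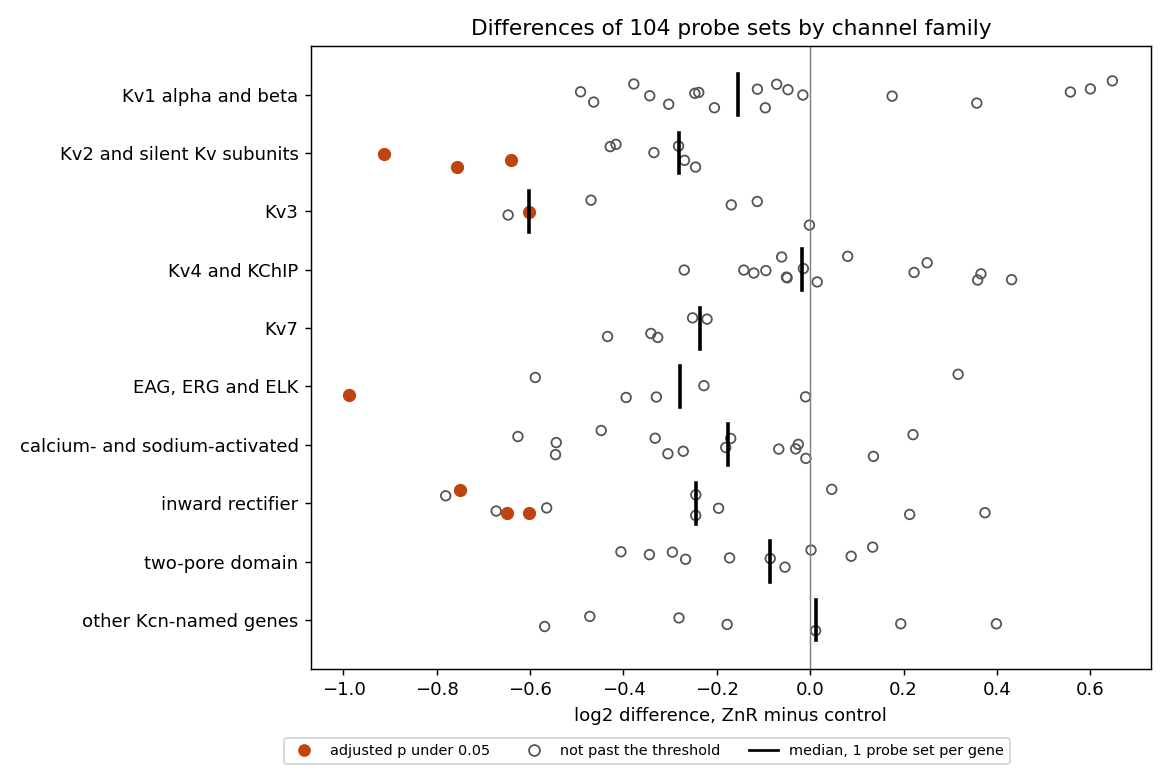
The log2 difference (ZnR minus control, horizontal axis) of the 104 probe sets tested is plotted by channel family, one circle per probe set, filled where the adjusted p is under 0.05; the black bar is the family median with 1 probe set per gene. The 8 filled circles lie between -0.99 and -0.60, and every circle right of 0 is open.

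The upstream DNA of 3 genes is shown: Kcnj9 and Kcnj3, because they encode partner subunits of one channel and were lower on average together, and Kcnh1, because it had the largest difference. Each line gives the 250 bases before the gene's start in RefSeq on GRCm38.p6, the C57BL/6J reference, 5′ to 3′ on the gene's strand. Capitals mark matches on either strand to any of the motifs TATAAA (the TATA box), GGGCGG (the GC box), TGACGTCA (the cAMP response element) and the core bound by MEF2 factors.
Kcnj9, chr1:172329323-172329572, minus strand: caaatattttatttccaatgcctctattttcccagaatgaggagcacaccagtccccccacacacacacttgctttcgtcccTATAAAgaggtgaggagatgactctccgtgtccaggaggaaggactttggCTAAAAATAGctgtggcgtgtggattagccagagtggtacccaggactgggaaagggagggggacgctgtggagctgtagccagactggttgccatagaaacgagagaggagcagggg
Kcnj3, chr2:55435720-55435969, plus strand: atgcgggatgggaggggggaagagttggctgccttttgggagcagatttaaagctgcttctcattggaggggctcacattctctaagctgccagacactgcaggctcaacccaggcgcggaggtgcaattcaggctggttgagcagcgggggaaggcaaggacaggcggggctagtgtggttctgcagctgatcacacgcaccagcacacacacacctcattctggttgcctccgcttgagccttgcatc
Kcnh1, chr1:192190527-192190776, plus strand: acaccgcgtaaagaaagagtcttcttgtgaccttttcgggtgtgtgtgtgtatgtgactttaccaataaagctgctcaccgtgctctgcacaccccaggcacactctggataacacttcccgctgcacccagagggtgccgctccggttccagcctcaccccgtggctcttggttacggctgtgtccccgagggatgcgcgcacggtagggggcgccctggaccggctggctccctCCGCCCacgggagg

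The Kcnj9 window held 1 TATA box, starting 168 bases before the gene's start, and 1 MEF2 core, starting 118 bases before it. The Kcnh1 window held 1 GC box and the Kcnj3 window none of these letters. Promoter entries were found for 61 of the 81 member genes, 84 windows in all, of which 2.38% held TATAAA, 46.4% GGGCGG and 2.38% the MEF2 core. Over all 32851 windows of the same length the shares were 12.4%, 32.7% and 3.2%. TGACGTCA was in 0 of the 84 and in 1.55% of all. The matches describe letters only, and the reference is of another strain than the mice.

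Among the silent subunits, which join Kv2 channels and alter their gating but form no channel alone, Kcnv1 (chromosome 15) fell on all 3 of its probe sets. Probe set 1453273_at read 7.41, 7.38 and 7.33 in ZnR mice 3, 7 and 11, against 8.19, 8.45 and 8.21 in control mice 1, 5 and 9. The SD was 0.04 among ZnR mice and 0.14 among control mice (n = 3 each), and the groups lay far apart beside that spread. Kcnv1 was 1.88-fold lower on this probe set (log2 difference -0.91 ± 0.10 SE, limma adjusted p = 0.017). Probe set 1429741_at read 7.52, 7.43 and 7.53 in ZnR mice, against 8.13, 8.30 and 8.33 in control mice (-0.76 ± 0.09 SE, adjusted p = 0.0208). Probe set 1439333_at read 8.69, 8.71 and 8.65 in ZnR mice, against 9.23, 9.42 and 9.33 in control mice (-0.64 ± 0.09 SE, adjusted p = 0.0239). No control value was as low as any ZnR value on any of the 3. ZnR mouse 3 differed from control mouse 1 by -0.79, -0.60 and -0.54 in the same order, and the remaining mice by -0.98, -0.84 and -0.69. Leaving out mice singly, the first of these probe sets passed in 3 of 6 fits and each of the others in 1, with differences from -0.96 to -0.59 over all 3.

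The remaining silent subunits tested did not pass, and no gene tested of this family was higher on average. The level filter left out 4 of the 9 genes listed. Of these, Kcng2 was higher without overlap (means of 4.07 in ZnR and 3.79 in control mice). Kcns1 was lower without overlap (2.80 and 3.13), and Kcng4 and Kcnv2 overlapped. Kcns2 measured 7.42, 7.42 and 7.46 in ZnR mice, against 7.84, 7.75 and 7.72 in control mice, a log2 difference of -0.33 ± 0.08 SE with adjusted p = 0.0906. Its groups did not overlap there, but on its other probe set they did (-0.43 ± 0.31 SE). Kcnf1 measured -0.28 ± 0.09 SE (adjusted p = 0.176) and Kcns3 -0.25 ± 0.10 SE (adjusted p = 0.252). Kcng1, named after its values were seen, measured -0.27 ± 0.12 SE (adjusted p = 0.305). The 5 genes tested of this family had a median of -0.28, with 1 lower, 0 higher and 4 not past the test.

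The G protein-gated inward rectifiers are opened by the G protein of inhibitory receptors such as the GABA-B receptor. Kcnj9 (chromosome 1), whose product joins such channels, was lower on all 3 probe sets tested, but the level filter fixed the direction of 1426115_a_at. Probe set 1450712_at read 8.18, 8.38 and 8.28 in ZnR mice, against 8.94, 8.91 and 8.80 in control mice. It was 1.52-fold lower (-0.60 ± 0.09 SE, limma adjusted p = 0.0316), and the groups were separated by more than the range within either. Probe set 1428602_at read 6.21, 5.97 and 5.82 in ZnR mice, against 6.80, 6.57 and 6.89 in control mice (-0.75 ± 0.13 SE, adjusted p = 0.0461). Probe set 1426115_a_at read 3.93, 3.83 and 3.89 in ZnR mice, against 4.35, 4.58 and 4.68 in control mice (-0.65 ± 0.11 SE, adjusted p = 0.0381), and this is the probe set that passed the level filter through control mice alone. ZnR mouse 3 differed from control mouse 1 by -0.76, -0.58 and -0.42 in the same order, and the remaining mice by -0.52, -0.83 and -0.77. Leaving out mice singly, 1450712_at and 1428602_at passed in 0 of 6 fits and 1426115_a_at in 1, with differences from -0.86 to -0.55 over all 3.

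Kcnj3 (chromosome 2), which encodes the main partner subunit of these channels, had log2 differences from -0.78 to -0.56 but did not pass. Probe set 1444025_at read 7.48, 8.12 and 7.82 in ZnR mice, against 8.41, 8.62 and 8.74 in control mice (-0.78 ± 0.17 SE, limma adjusted p = 0.0714). Probe set 1455374_at read 7.52, 7.95 and 7.94 in ZnR mice, against 8.28, 8.49 and 8.66 in control mice (-0.67 ± 0.15 SE, adjusted p = 0.0791). Probe set 1421468_at read 5.49, 5.71 and 5.90 in ZnR mice, against 6.37, 6.20 and 6.23 in control mice (-0.56 ± 0.12 SE, adjusted p = 0.0677). None of the 3 overlapped between the diets, and ZnR mouse 3 was the lowest mouse on each. In the fit with ZnR mouse 3 and control mouse 1 as a block, 1444025_at had adjusted p = 0.0293 and 1455374_at 0.0254. The partner gene Kcnj6 was below the level filter on all its probe sets.

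The other inward rectifiers did not pass. Kcnj4, a strong rectifier of forebrain neurons, measured -0.25 ± 0.11 SE (adjusted p = 0.298), and Kcnj11, the pore of the ATP-sensitive channel, -0.20 ± 0.08 SE (adjusted p = 0.266). Kcnj10 and Kcnj16 were named after their values were seen. Kcnj10, the glial channel that takes up potassium released by neurons, read 9.25, 9.24 and 9.10 in ZnR mice, against 9.01, 9.14 and 9.29 in control mice, and the groups overlapped (0.05 ± 0.10 SE, 95% confidence interval -0.19 to 0.29). Its partner Kcnj16 measured 0.37 ± 0.25 SE (adjusted p = 0.505). The 7 inward rectifier genes tested had a median of -0.25, with 1 lower, 0 higher and 6 not past the test, while 6 further genes of the family were below the filter.

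**Figure D2:**
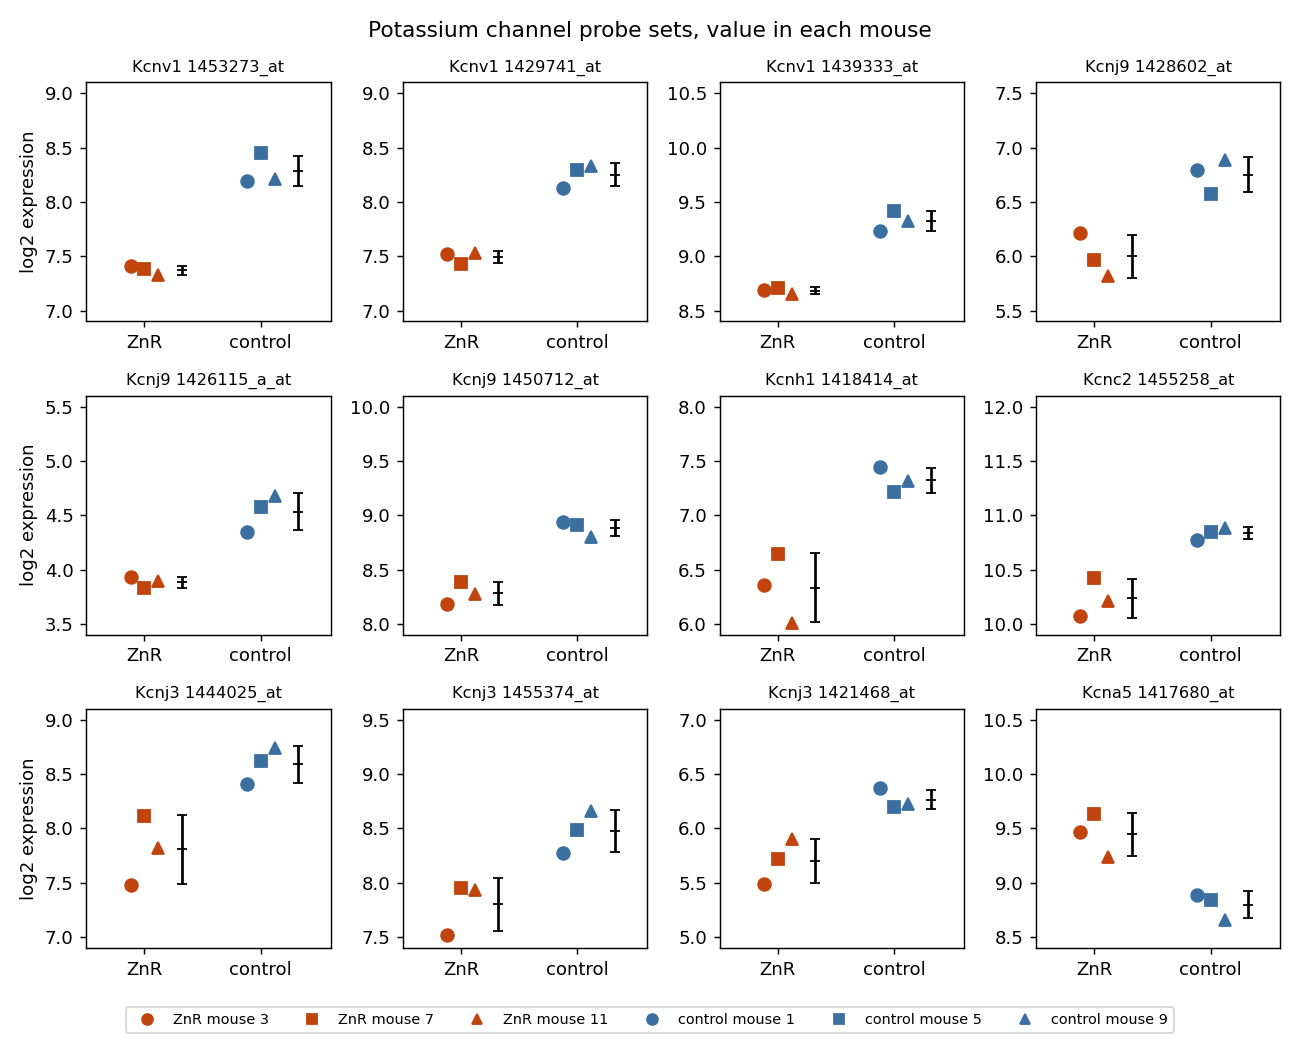
The log2 expression value in each mouse is plotted for the 8 probe sets past the threshold, the 3 of Kcnj3 and that of Kcna5, with a symbol and colour for each mouse and the mean ± SD of each diet beside the points; each vertical axis spans the same number of log2 units but starts at a different level and not at 0. On all 12 the ZnR and control points do not overlap, and on Kcna5 alone the ZnR points are the higher ones.

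Kcnh1 (chromosome 1) encodes a slowly activating Kv channel of the ether-à-go-go group. Probe set 1418414_at read 6.35, 6.64 and 6.0 in ZnR mice, against 7.44, 7.21 and 7.31 in control mice. Kcnh1 was 1.98-fold lower there, the largest difference of any member probe set tested (-0.99 ± 0.16 SE, limma adjusted p = 0.0382), although the ZnR mice were spread more widely (SD 0.32, n = 3) than the control mice (SD 0.11, n = 3). Its other probe set read 9.21, 9.07 and 8.71 in ZnR mice, against 9.90, 9.57 and 9.29 in control mice, without overlap, and did not pass (-0.59 ± 0.18 SE, adjusted p = 0.166). On 1418414_at ZnR mouse 3 differed from control mouse 1 by -1.09 and the remaining mice by -0.94, and leaving out mice singly kept the call in 1 of 6 fits (-1.14 to -0.82). Kcnh3, a related forebrain channel, measured -0.33 ± 0.09 SE (adjusted p = 0.139) on a probe set whose suffix marks possible cross-hybridization. Its other probe sets tested measured -0.39 ± 0.14 SE without overlap (limma adjusted p = 0.208) and -0.01 ± 0.13 SE with overlap (0.981). Kcnh5 measured -0.23 ± 0.22 SE and Kcnh2 0.32 ± 0.15 SE (adjusted p = 0.345), both with overlapping groups.

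The Kv3 channels repolarize the membrane quickly and let neurons fire at high rates. Kcnc2 (chromosome 10) read 10.07, 10.42 and 10.21 in ZnR mice, against 10.78, 10.85 and 10.89 in control mice. It fell 1.52-fold (-0.60 ± 0.11 SE, limma adjusted p = 0.048), with no overlap. ZnR mouse 3 differed from control mouse 1 by -0.70 and the remaining mice by -0.55, and leaving out mice singly kept the call in 0 of 6 fits (-0.70 to -0.52). Kcnc4 read 7.35, 7.14 and 7.05 in ZnR mice, against 8.07, 7.81 and 7.61 in control mice, and did not pass (-0.65 ± 0.14 SE, adjusted p = 0.069). Its second probe set measured -0.47 ± 0.12 SE. Kcnc1, which fast-spiking interneurons also use, measured -0.11 ± 0.12 SE with overlapping groups (95% confidence interval -0.39 to 0.16). Pvalb, the marker of those interneurons, read 6.98, 7.33 and 7.03 in ZnR mice, against 7.12, 8.17 and 8.16 in control mice, and did not pass (adjusted p = 0.255), while the whole interneuron list, 7 of 7 measured, averaged 10.1 to 10.2 in ZnR mice and 10.0 to 10.3 in control mice. Its genes did not move together. Vip fell 2.00-fold (adjusted p = 0.0208), while Slc32a1 and Gad2 had log2 differences of 0.56 (adjusted p = 0.0607) and 0.39 (adjusted p = 0.119). Their part in the Kcnc2 result was not tested.

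The Kv7 channels carry the M-current, which muscarinic receptors shut off. Both Kv7 genes tested were lower on average and neither passed. Kcnq5 read 9.26, 9.34 and 9.22 in ZnR mice, against 9.48, 9.53 and 9.47 in control mice (-0.22 ± 0.08 SE, limma adjusted p = 0.221). Its other probe sets measured -0.34 ± 0.10 SE and -0.43 ± 0.08 SE, the second with adjusted p = 0.0564, and none of the 3 overlapped between diets. Kcnq3 measured -0.25 ± 0.10 SE (adjusted p = 0.251).

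Of 8 genes tested among the calcium- and sodium-activated channels, their accessory subunits and the related Kcnu1, 7 were lower on average. Of the 8, 0 passed the test in either direction (limma; 3 lower and 0 higher at an unadjusted p under 0.05). These unadjusted counts are 37.5% and 0% of the 8, beside 7.31% and 11.4% of all genes. The level filter left out 3 of the 11 genes listed. Of these, Kcnmb1 (0.48 and 0.42) and Kcnn4 (0.24 and 0.14) were higher on average and Kcnn3 lower (-0.04), all untested. The largest difference was in Kcnmb4, the brain accessory subunit of the large-conductance calcium-activated (BK) channel. It read 9.52, 9.38 and 9.22 in ZnR mice, against 10.26, 9.94 and 9.80 in control mice (-0.63 ± 0.14 SE, adjusted p = 0.0764). Kcnma1, the BK pore gene, had 5 probe sets, all lower on average, from -0.55 to -0.07. On the one with the highest level, Kcnma1 read 9.78, 9.95 and 9.87 in ZnR mice, against 10.14, 10.14 and 10.31 in control mice (-0.33 ± 0.09 SE, adjusted p = 0.129). Kcnt2, a sodium-activated channel, measured -0.54 ± 0.16 SE (adjusted p = 0.148) without overlap, and its relative Kcnt1 0.22 ± 0.12 SE with overlap. The small-conductance channel gene Kcnn2, like Kcnt1 named after its values were seen, read 9.51, 9.40 and 9.36 in ZnR mice, against 9.42, 9.40 and 9.48 in control mice, a difference of -0.01 ± 0.08 SE (95% confidence interval -0.20 to 0.18).

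The members with the largest positive differences were mostly Kv1 and Kv4 channel subunits, and none passed the test as fitted here. Kcna5, a Kv1 pore subunit, read 9.47, 9.64 and 9.24 in ZnR mice, against 8.89, 8.85 and 8.66 in control mice (0.65 ± 0.12 SE, limma adjusted p = 0.0533). All its ZnR values were the higher ones. It passed in 4 alternative fits: after renewed quantile normalization (adjusted p = 0.049), among probe sets above a log2 value of 5 (0.0464), with an intensity trend (0.0171) and with array weights (0.0173). Kcnab1, the beta subunit that makes Kv1 channels inactivate, measured 0.36 ± 0.10 SE and 0.60 ± 0.16 SE on its 2 probe sets (adjusted p = 0.145 and 0.113), with no overlap on either. Kcna4, a fast-inactivating Kv1 subunit named after its values were seen, measured 0.56 ± 0.13 SE (adjusted p = 0.0788) on one probe set and 0.18 ± 0.10 SE on that with the highest level. Both Kcnab1 probe sets and 1 of Kcnip2 passed as higher with an intensity trend (adjusted p from 0.0184 to 0.0481) and with array weights (0.0276 to 0.0441), where 1 of Kcna4 also passed (0.0333). Striatal medium spiny neuron markers were higher in the same ZnR mice, 8 of 8 measured on average and 2 past the test, and their part in these values was not tested.

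The other 7 genes of the Kv1 family were lower on average in ZnR mice without passing the test. Kcna6 read 7.39, 7.19 and 7.24 in ZnR mice, against 7.67, 7.73 and 7.45 in control mice (-0.34 ± 0.11 SE, limma adjusted p = 0.16). The main axonal Kv1 genes, named after their values were seen, measured -0.07 ± 0.09 SE (Kcna1, 95% confidence interval -0.29 to 0.14) and -0.24 ± 0.10 SE (Kcna2, adjusted p = 0.292). Of 10 Kv1 and beta subunit genes, 0 passed (limma; 4 lower and 2 higher unadjusted), 7 were lower on average and 3 higher, and the median was -0.16. The unadjusted counts are 40% and 20% of the 10, beside 7.31% and 11.4% of all genes.

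Kv4 channels carry the A-type current of dendrites, and the KChIP proteins (Kcnip genes) bind calcium and bring them to the membrane. The pore genes, named after their values were seen, had overlapping groups, with Kcnd2 at 0.02 ± 0.08 SE (95% confidence interval -0.17 to 0.20) and Kcnd3 at -0.09 ± 0.12 SE. Kcnip2 read 11.38, 11.11 and 11.25 in ZnR mice, against 10.85, 10.86 and 10.74 in control mice, and did not pass (0.43 ± 0.10 SE, limma adjusted p = 0.0819). On its other probe set tested the groups overlapped (0.25 ± 0.20 SE, limma adjusted p = 0.579). Kcnip1 measured 0.22 ± 0.11 SE and Kcnip4 -0.27 ± 0.11 SE (adjusted p = 0.365 and 0.267). The median of the 6 genes was -0.02, with 0 past the test (limma; 1 lower and 1 higher unadjusted). Each unadjusted count is 16.7% of the 6, beside 7.31% lower and 11.4% higher of all genes.

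Channels with a pair of pore domains per subunit set the resting leak. Of 7 genes tested 0 passed (limma; 3 lower and 0 higher unadjusted), with a median of -0.09. The unadjusted counts are 42.9% and 0% of the 7, beside 7.31% and 11.4% of all genes. Kcnk1 read 10.65, 10.46 and 10.69 in ZnR mice, against 11.03, 11.03 and 10.95 in control mice, without overlap (-0.41 ± 0.09 SE, adjusted p = 0.0843), and its other probe set measured -0.17 ± 0.08 SE. Kcnk3, an acid-sensitive channel, measured -0.34 ± 0.13 SE (adjusted p = 0.235), and Kcnk12, which gives little current by itself, -0.30 ± 0.09 SE (adjusted p = 0.171). The mechanically sensitive channel gene Kcnk2, named after its values were seen, measured 0.13 ± 0.11 SE with overlap.

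Of the Kcn-named genes outside these families, 3 of 8 were tested and none passed. Kcne1l, a single-span accessory subunit gene, measured 0.40 ± 0.11 SE (adjusted p = 0.125). Kcnmb4os2, a transcript named for the strand opposite to Kcnmb4, measured -0.47 ± 0.14 SE (adjusted p = 0.146). The non-coding Kcnq1ot1, which silences neighbouring imprinted genes and encodes no channel, had 5 probe sets that disagreed, from -0.57 ± 0.24 SE (adjusted p = 0.283) to 0.19 ± 0.12 SE, and 0.01 ± 0.13 SE on that with the highest level.

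**Figure D3:**
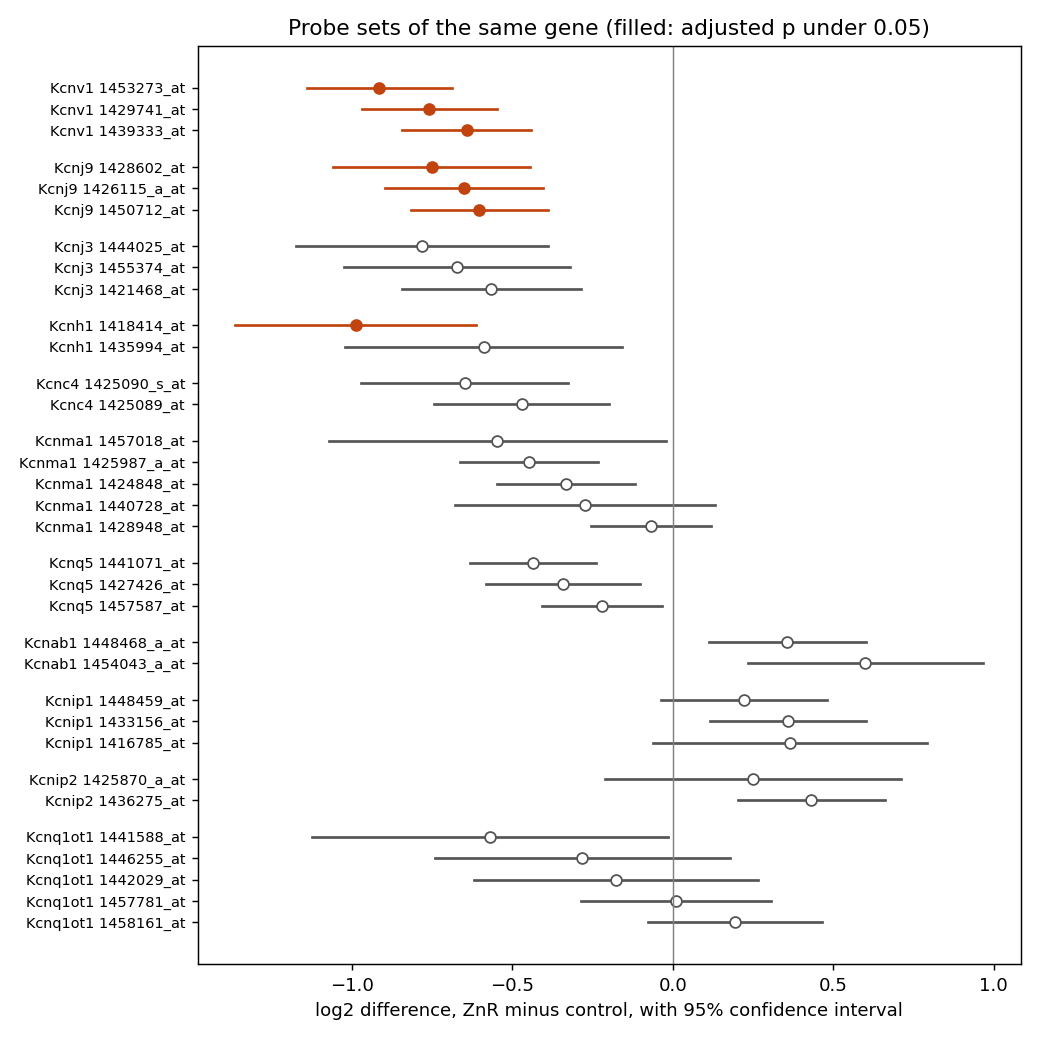
Log2 differences (ZnR minus control, horizontal axis) with 95% confidence intervals are plotted for the separate probe sets of 11 genes, filled where the adjusted p is under 0.05. The 3 probe sets of Kcnv1 and the 3 of Kcnj9 are filled and lie left of -0.5, those of Kcnj3 lie beside them unfilled, and those of Kcnq1ot1 fall on both sides of 0.

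Probe sets of one gene mostly pointed the same way. Of 30 genes with more than 1 probe set tested, 21 were lower on average on all of them, 5 higher on all and 4 mixed. The mixed ones were Kcnq1ot1, Kcnd2 (-0.12 to 0.08), Kcnk10 (-0.05 to 0.09) and Kcnt1 (-0.03 to 0.22). These probe sets read one transcript pool and are not independent.

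Proteins that hold, anchor or modify potassium channels, and the related HCN channels, were listed separately. Of 24 such genes 18 were tested, and 0 passed in either direction (limma; 2 lower and 0 higher unadjusted), with 10 lower on average, 8 higher and a median of -0.03, beside 0.03 over all genes. The 2 lower genes are 11.1% of the 18, beside the 7.31% of all genes given above. The genes with the smallest p were Rgs7, which speeds the closing of G protein-gated inward rectifiers, Adam23, a receptor of the Lgi1 complex that regulates Kv1 channels, and Akap5, which anchors kinases to Kv7 channels. Rgs7 read 9.07, 9.13 and 9.26 in ZnR mice, against 9.37, 9.48 and 9.61 in control mice (-0.33 ± 0.10 SE, adjusted p = 0.15). Adam23 measured -0.22 ± 0.09 SE (adjusted p = 0.268) and Akap5 0.22 ± 0.10 SE (adjusted p = 0.33).

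Of the 81 genes, 26 never passed the level filter, among them Kcnj6, Kcnj2, Kcnn3, Kcnq1, Kcns1 and Kcnh7, and log2 differences near the array's floor are compressed. Of all 59 low member probe sets, some of them of genes tested on others, the ZnR values lay below the control values without overlap on 11 and above on 5. These are 18.6% and 8.47%, beside 5.68% and 5.94% of the 19656 low probe sets of the array, and none was tested. Of 5 Kcnj6 probe sets, 2 did not overlap, with means of 3.39 and 3.54 in ZnR mice, against 3.93 and 4.01 in control mice. The other 3 overlapped, with differences from -0.10 to -0.04.

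**Figure D4:**
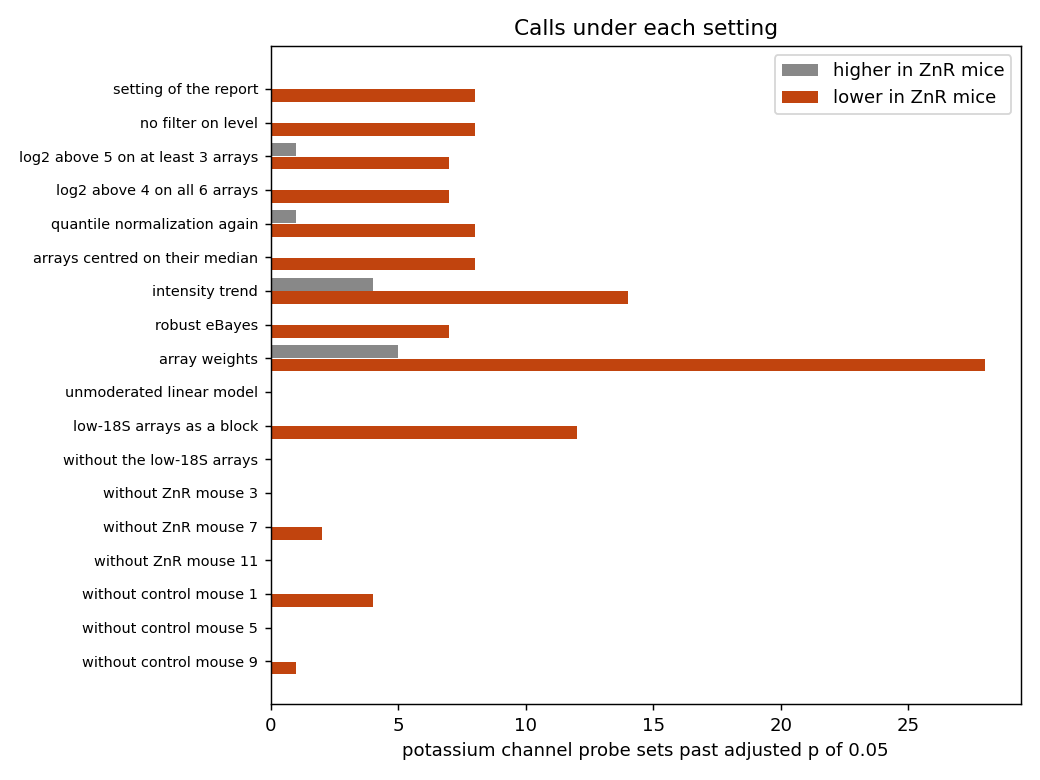
Bars give the number of potassium channel probe sets past an adjusted p of 0.05 (horizontal axis) under each setting, lower and higher in ZnR mice apart. The count of lower probe sets runs from 0, for example without control mouse 5, to 28 with array weights, and the count of higher ones from 0 to 5.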

How the data were processed

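Total RNA, 500 ng per mouse, was labelled with the Affymetrix 3′ IVT Express kit, per the labels' protocols. The authors deposited log2 expression for every probe set, with a column for each mouse, and the submitters' processing notes name R 2.15.1 and GCRMA 2.28.0. This method corrects background by probe sequence and makes arrays nearly equal in distribution, so a change of total RNA cannot be seen. Probe sets were named from the platform annotation, and all 163 members matched the RefSeq table of GRCm38.p6 by Entrez identifier. Array controls and probe sets with a log2 value above 4 on fewer than 3 arrays were left out. The diets were compared by limma 3.58.1 under R 4.3.3 (lmFit, eBayes, two-sided, Benjamini-Hochberg over 25381 probe sets, threshold 0.05) without covariates. SE is the moderated standard error, and folds are antilogs of log2 differences. The fit was also run on simulated data with independent noise, which these arrays need not have, so that run does not bear on the calls. Robust variances used statmod 1.5.0, and tables and plots Python 3.11.15, pandas 2.3.3 and matplotlib 3.10.9.

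Named genes were those past the threshold, up to 3 further per family with the smallest p, genes with probe sets of opposite sign where one had an unadjusted p under 0.05, and the 3 partner genes with the smallest p. The members, lists and alternatives were chosen with earlier results of these data known. Arrays came from separate mice, and their number limits the precision.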

Additional observations from a re-analysis of the deposited data

How the results depend on the processing

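The mice of each diet carry different numbers. The labels name no pairs of mice across the diets, so no paired analysis was run, and whether neighbouring numbers form pairs was not tested. Counts that follow are of calls at an adjusted p under 0.05. The probe set count of 8, all lower, was 18 (14 lower, 4 higher) with an intensity trend in the variance prior, 33 (28 lower, 5 higher) with array weights, 0 with an unmoderated linear model (34 lower and 7 higher unadjusted) and 0 without ZnR mouse 3 and control mouse 1, whose 18S signal was low. Calls over all probe sets were 916, 2003, 3 and 1 in the same order, against 373, and unadjusted counts over all probe sets were not made for these settings. The gene count of 3 was 10, 19, 0 and 0 in the same order, and 6 with those mice as a block. Leaving out 1 mouse at a time gave 0 to 4 probe sets and 0 to 1 genes. Calls over all genes are not given for these settings, so the gene counts have no share beside them. The partner gene count of 0 was 1 with array weights, which gave the most calls over all probe sets of any setting. The block added Kcnc4, Kcnmb4 and 2 probe sets of Kcnj3. Robust variances lost Kcnc2 (adjusted p = 0.0515). None of the 8 probe sets changed direction under these settings, which is no sign of stability where groups do not overlap.

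Family medians moved beyond their spread over mice as follows. Without a level filter the EAG, ERG and ELK median was -0.10 and that of calcium- and sodium-activated channels -0.038. Above a log2 value of 5 the median of calcium- and sodium-activated channels was -0.33. Without both low-18S mice the Kv1 median was -0.075. With all probe sets in place of 1 per gene the medians were -0.42 (Kv2 and silent), -0.32 (Kv3), -0.33 (Kv7), -0.40 (inward rectifiers) and -0.18 (other Kcn-named genes). Leaving out 1 mouse gave -0.34 to -0.29 for Kv2 and silent subunits and -0.35 to -0.19 for EAG, ERG and ELK. Among named genes past or short of the threshold, 6 values turned sign, all near 0. The Kcnq1ot1 probe set with the highest level was -0.0064 with array weights and -0.042 without both low-18S mice, and ran from -0.075 to 0.15 when mice were left out singly. Kcnh5 was 0.013 without control mouse 9. The causes were not tested.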
